A study of Mus musculus with 18 samples.

Results

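Matrix metalloproteinases are zinc-dependent enzymes that cut the proteins of the extracellular matrix, and the tissue inhibitors of metalloproteinases (TIMPs) bind and block them. The genes described here were the 8 metalloproteinases Mmp2, Mmp3, Mmp7, Mmp9, Mmp10, Mmp12, Mmp13 and Mmp14 and the 2 inhibitors Timp1 and Timp2. They were taken by name as 10 of the 55414 genes of an RNA-seq table of mouse small intestinal organoid cultures, and all 10 were found in it. Organoids are small epithelial structures grown from intestinal tissue inside a gel.

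Most metalloproteinases are secreted as inactive precursors whose propeptide must be removed before they can cut. In the intestine of the mouse, epithelial Mmp7 (matrilysin) is best known as the enzyme of Paneth cells that activates the precursors of the antimicrobial alpha-defensins. Mmp14 (MT1-MMP) sits in the cell membrane, cuts fibrillar collagen and activates the precursor of the gelatinase Mmp2, a step in which Timp2 acts as the bridge between the enzymes. Several other family members are typical products of macrophages and of stromal cells.

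The 18 libraries fell into 6 groups of 3, which the series calls biological replicates, all from wild-type C57BL/6J mice and labelled as intestinal epithelial cells. VIL cultures were grown from villi scraped from the stretch of intestine next to the pylorus, and COL_cWRNE cultures from crypts, both in collagen type I with 25% cWRNE medium. COL_5FU and COL_Control were crypt cultures in collagen type I with ENRW medium, and MG_5FU and MG_Control were crypt cultures in Matrigel, a gel of basement membrane proteins, fed ENR medium, which contains EGF, Noggin and R-spondin 1. Both 5FU groups received 40 µM 5-fluorouracil (5-FU), a pyrimidine analogue that blocks thymidylate synthesis, from day 4, and their controls were left untreated. All cultures were harvested on day 6. Age is not given in the labels, nor is the animal behind each replicate or the part of the small intestine that gave the crypts. Collagen was always paired with another medium than Matrigel, so gel and medium cannot be told apart in any comparison of collagen with Matrigel, and villus origin cannot be told apart from the proximal position of the villi.

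Libraries held 22.3 to 34.5 M estimated counts. The epithelial markers Epcam, Cdh1, Krt8, Krt18, Krt19, Vil1 and Cldn7 were present in every library, with a summed level of 16585 to 20752 TPM (transcripts per M transcripts) in VIL and 7651 to 27204 TPM in the crypt-derived groups. The VIL libraries stood apart from the rest in macrophage and mesenchymal markers, and differed among themselves. Neutrophil markers overlapped, with sums of 7.94 to 112 TPM in VIL and 26.4 to 61.8 TPM in COL_cWRNE. So did endothelial markers (0.891 to 12.9 TPM in VIL, 1.21 to 1.74 TPM in COL_5FU) and glia and neuron markers (0.159 to 2.46 TPM in VIL, 0.098 to 0.796 TPM in COL_Control). All 13 macrophage and myeloid markers had counts in each VIL library, and their summed level was 1306, 3982 and 6324 TPM in replicates 1, 2 and 3, against 23.1 to 163 TPM in the 15 crypt-derived libraries. The macrophage gene Adgre1 was at 0 counts in all 15 crypt-derived libraries, and C1qb, C1qc and Tyrobp were at 0 in all of them outside MG_5FU. The 15 mesenchymal markers summed to 26.4, 341 and 344 TPM in VIL replicates 1, 2 and 3, against 1.17 to 7.61 TPM in the crypt-derived libraries. Replicate 2 of every group carried Y-linked transcripts and the others carried Xist, except COL_Control replicate 3, which carried both. Its 738 Y-linked counts stood beside 4893 Xist counts, and leaving it out moved no call for any of the 10 genes.

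Of the 10 genes, 5 lie on chromosome 9, where Mmp13, Mmp12, Mmp3, Mmp10 and Mmp7 appear in that order in a run of 10 neighbouring metalloproteinase genes that also holds Mmp1b, Mmp1a, Mmp8, Mmp27 and Mmp20. Mmp9 is on chromosome 2, Mmp2 on chromosome 8, Timp2 on chromosome 11, Mmp14 on chromosome 14 and Timp1 on the X chromosome. Promoter sequences were found for 8 of the 10 genes in RefSeq (build GRCm38.p6, which differs from the build of the expression table). The 250 bases upstream of the most upstream start are given for 4 genes of the chromosome 9 run and for Mmp14. Mmp10, Mmp12 and Mmp13 shared an expression pattern, and Mmp7 and Mmp14 each had another. Capitals mark matches, on either strand, to TGANTCA, the AP-1 motif, and to AGGAAG, the PEA3 motif, which did not overlap.
Mmp7, chr9:7691840-7692089, plus strand: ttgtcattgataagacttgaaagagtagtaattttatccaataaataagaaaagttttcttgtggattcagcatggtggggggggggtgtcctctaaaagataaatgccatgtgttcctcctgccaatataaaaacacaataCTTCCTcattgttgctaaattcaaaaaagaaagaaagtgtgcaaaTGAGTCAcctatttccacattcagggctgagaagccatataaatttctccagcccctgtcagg
Mmp10, chr9:7502092-7502341, plus strand: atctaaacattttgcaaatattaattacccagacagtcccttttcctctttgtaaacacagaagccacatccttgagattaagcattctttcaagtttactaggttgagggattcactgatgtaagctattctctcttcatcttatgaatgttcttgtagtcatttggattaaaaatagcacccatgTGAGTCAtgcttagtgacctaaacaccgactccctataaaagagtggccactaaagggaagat
Mmp12, chr9:7344147-7344396, plus strand: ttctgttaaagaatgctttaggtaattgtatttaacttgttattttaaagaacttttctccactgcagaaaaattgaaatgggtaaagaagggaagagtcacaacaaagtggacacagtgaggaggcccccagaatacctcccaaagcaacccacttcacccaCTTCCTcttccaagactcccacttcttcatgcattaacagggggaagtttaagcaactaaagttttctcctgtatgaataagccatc
Mmp13, chr9:7272264-7272513, plus strand: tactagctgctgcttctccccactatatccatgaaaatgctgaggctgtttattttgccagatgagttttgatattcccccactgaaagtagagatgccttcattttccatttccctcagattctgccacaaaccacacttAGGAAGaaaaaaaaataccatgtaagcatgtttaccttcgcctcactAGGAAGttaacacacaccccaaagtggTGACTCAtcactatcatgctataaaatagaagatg
Mmp14, chr14:54431348-54431597, plus strand: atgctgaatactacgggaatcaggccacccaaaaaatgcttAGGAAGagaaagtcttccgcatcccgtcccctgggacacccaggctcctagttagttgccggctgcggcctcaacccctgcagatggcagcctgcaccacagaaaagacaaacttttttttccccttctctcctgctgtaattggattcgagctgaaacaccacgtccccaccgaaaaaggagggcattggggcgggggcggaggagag
The AP-1 motif was present in the windows of Mmp3, Mmp7, Mmp10 and Mmp13, with its first base 46, 63, 63 and 35 bases upstream of the start. It was absent from those of Mmp12, Mmp14, Timp1 and Timp2. Across 27025 promoter windows of the same length, 6.9% held it. The PEA3 motif was found in 6 of the 8 windows and in 29.2% of all windows. Mmp7 and Mmp10 thus carried the AP-1 letters at the same distance from the start, although Mmp7 transcripts were present in every library and Mmp10 transcripts were nearly restricted to VIL.

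Mmp7 was the most abundant of the 8 metalloproteinases per length in every library, and it rose with 5-FU in Matrigel and not in collagen. In CPM (counts per M, scaled between libraries by the TMM method), Mmp7 stood at 551, 482 and 475 CPM in MG_5FU and at 146, 147 and 123 CPM in MG_Control. The groups did not overlap, and the fold change was 3.77 (log2 fold change 1.91 ± 0.18 SE, edgeR quasi-likelihood adjusted p = 4.76e-06). Of the 4 genes with enough counts to be tested in this comparison, Mmp7 alone was called at an adjusted p under 0.05, where 30.9% of the 16611 genes tested were called, 19.2% higher and 11.7% lower. In collagen, Mmp7 had 172, 140 and 137 CPM in COL_5FU and 236, 134 and 139 CPM in COL_Control. These groups overlapped, and the log2 fold change was -0.21 ± 0.18 (edgeR adjusted p = 0.393). The response in collagen minus that in Matrigel was -2.13 ± 0.26 on the log2 scale (edgeR adjusted p = 0.000257).

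The Paneth cell markers were measured beside Mmp7. Summed over 8 genes (Lyz1, Ang4, Mptx2, Itln1 and 4 alpha-defensins), they reached 104814 to 110964 TPM in MG_5FU and 40641 to 43892 TPM in MG_Control, and each of the 8 was higher in the MG_5FU libraries without overlap, as Mmp7 was. The sum is mostly Defa24, which made up 52.7 to 68.5% of it in every library. In collagen the markers summed to 13504 to 16034 TPM in COL_5FU and 14085 to 18907 TPM in COL_Control, with overlap, and 6 of the 8 overlapped singly. The other 2 were lower with 5-FU without overlap, Ang4 at 170 to 243 TPM in COL_5FU and 303 to 414 TPM in COL_Control, and Mptx2 at 5.36 to 13.8 TPM in COL_5FU and 14.0 to 20.5 TPM in COL_Control. Their part in the Mmp7 difference was not tested. In bulk RNA, fewer cells of a type and less RNA per cell cannot be told apart.

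**Figure D1:**
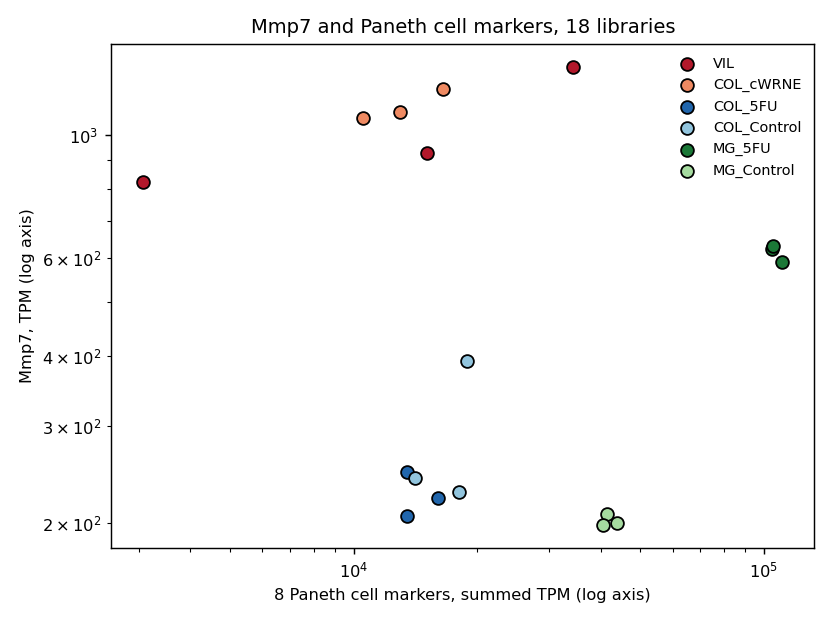
Mmp7 (TPM, vertical log axis) against the summed level of 8 Paneth cell markers (TPM, horizontal log axis), 1 point per library, coloured by group. MG_5FU lies to the upper right of MG_Control, whereas COL_cWRNE has Mmp7 at 1071 to 1208 TPM with marker sums of 10541 to 16542 TPM, which overlap the sums of COL_Control, where Mmp7 is at 228 to 392 TPM.

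The highest Mmp7 levels were found in the cWRNE medium. Mmp7 had 821, 664 and 684 CPM in COL_cWRNE and 236, 134 and 139 CPM in COL_Control, which share the collagen gel and differ in medium. The groups were well apart, with a fold change of 4.27 (log2 fold change 2.09 ± 0.23, edgeR adjusted p = 2.1e-05). The Paneth cell markers summed to 10541 to 16542 TPM in COL_cWRNE and 14085 to 18907 TPM in COL_Control, with overlap, but single markers went opposite ways. Ang4 (600 to 795 TPM in COL_cWRNE and 303 to 414 TPM in COL_Control), Mptx2 and Defa22 were higher in COL_cWRNE without overlap, as Mmp7 was. Lyz1 (679 to 1173 TPM in COL_cWRNE and 1850 to 2178 TPM in COL_Control) and Itln1 were lower without overlap, and the other 3 overlapped. Their part in the Mmp7 difference was not tested. In VIL cultures Mmp7 had 903, 620 and 490 CPM in replicates 1, 2 and 3, which spanned the 3 COL_cWRNE values. The log2 fold change of VIL over COL_cWRNE was -0.10 ± 0.22 (edgeR adjusted p = 0.834). Among the VIL libraries, replicate 1 had both the highest Mmp7 and the highest Paneth marker sum, 34237 TPM, against 15114 TPM in replicate 2 and 3071 TPM in replicate 3. Single markers differed here too. Lyz1, Ang4, Itln1, Mptx2 and Defa24 were highest in replicate 1. Defa22, Defa23 and Defa30 were highest in replicate 2, with Defa30 at 1390, 1597 and 150 TPM in replicates 1, 2 and 3.

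In order of mean level, Mmp7 was lowest in MG_Control, then COL_5FU and COL_Control, whose ranges overlapped in turn. MG_5FU stood above these 3 without overlap. VIL and COL_cWRNE came highest, and VIL overlapped both of its neighbours. Untreated collagen with ENRW against untreated Matrigel gave a log2 fold change of 0.28 ± 0.18 for Mmp7 (edgeR adjusted p = 0.263), and -0.03 without COL_Control replicate 1, the highest of the COL_Control libraries. The deposited TPM placed Mmp7 higher in COL_Control (0.46 on the log2(TPM + 1) scale, limma adjusted p = 0.046). With 5-FU in both gels, Mmp7 was lower in COL_5FU than in MG_5FU (log2 fold change -1.84 ± 0.18, edgeR adjusted p = 4.38e-06). An antisense gene, AV064505, overlaps Mmp7. It had at most 28 counts in a library, and since the library kit is not stated to keep strand its reads could not be separated.

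Mmp14 had the opposite pattern to Mmp7. It rose with 5-FU in collagen, with 263, 270 and 187 CPM in COL_5FU and 110, 96.5 and 87.0 CPM in COL_Control. The lowest treated library was above the highest control, and the fold change was 2.40 (log2 fold change 1.26 ± 0.14, edgeR adjusted p = 1.9e-05). In the main fit, without a replicate block, it was the only one of the 4 genes tested to be called with 5-FU in collagen. With the block, without the filter on low counts, or without COL_Control replicate 1, Timp2 was called too. In this comparison 35.3% of all genes tested were called, 18.6% higher and 16.7% lower. In Matrigel, Mmp14 had 54.9, 60.7 and 47.2 CPM in MG_5FU and 66.5, 58.6 and 59.9 CPM in MG_Control. These ranges overlapped, and the log2 fold change was -0.13 ± 0.14 (edgeR adjusted p = 0.536). The deposited TPM placed it lower there (log2 fold change -0.47 on the log2(TPM + 1) scale, limma adjusted p = 0.019).

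The 5-FU responses of Mmp14 differed between the gels by 1.39 ± 0.20 on the log2 scale (collagen minus Matrigel, edgeR adjusted p = 0.000735). Mmp7 and Mmp14 were thus both called in this test, in opposite directions, where 8.19% of all genes were called, 1.88% with the collagen response higher and 6.3% with it lower. The ratio of Mmp7 to Mmp14 within a library, in TPM, does not depend on scaling between libraries. It was 1.42 to 1.99 in COL_5FU and 3.71 to 5.95 in COL_Control, but 21.9 to 27.9 in MG_5FU and 5.56 to 6.56 in MG_Control. Neither pair of ranges overlapped, and 5-FU went with a lower ratio in collagen and a higher one in Matrigel.

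**Figure D2:**
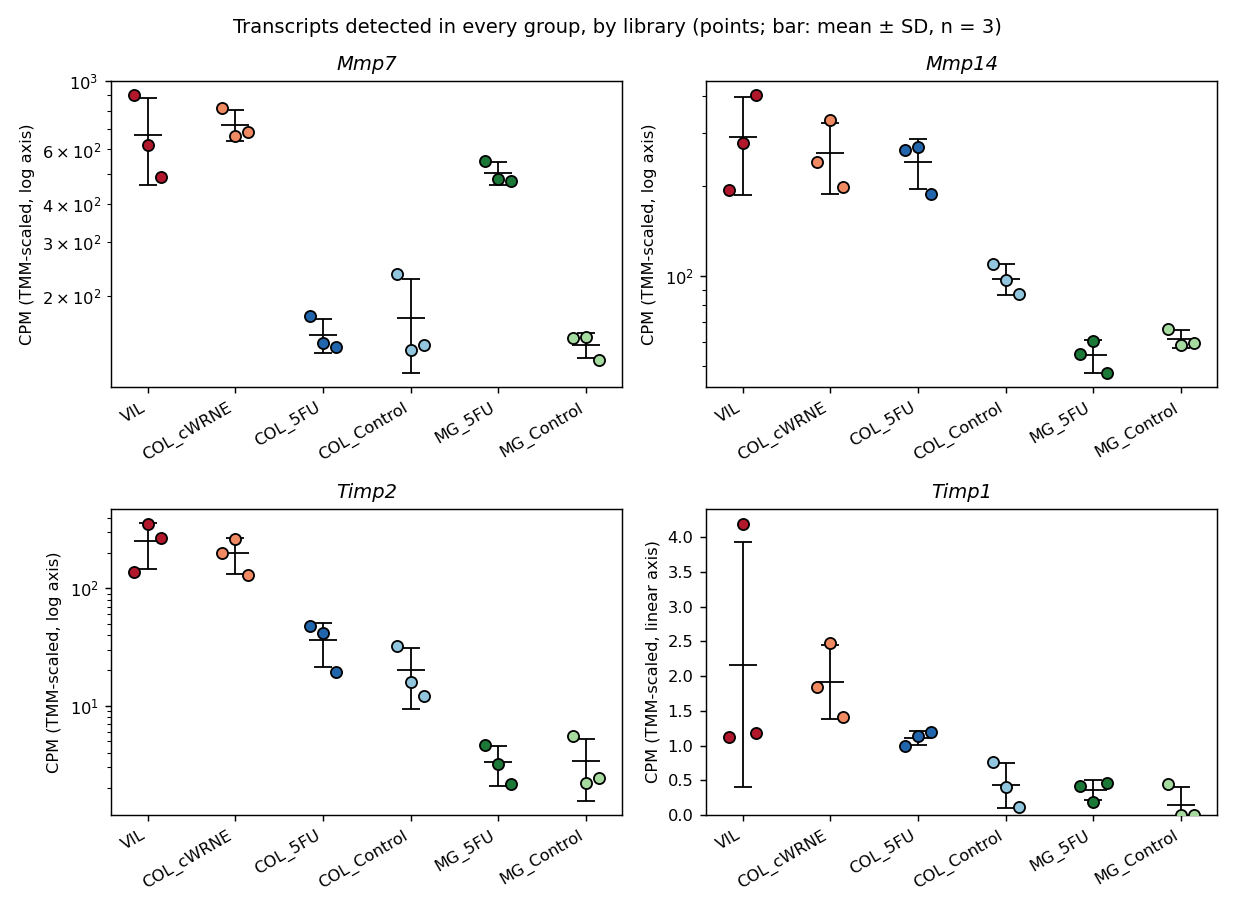
CPM of Mmp7, Mmp14, Timp2 (log axes) and Timp1 (linear axis) in each library, by group, with the mean and SD of 3 libraries as bars. Mmp7 is high in VIL, COL_cWRNE and MG_5FU, Mmp14 in VIL, COL_cWRNE and COL_5FU, and Timp2 falls into 3 tiers, with VIL and COL_cWRNE above 130 CPM, both ENRW groups between 12.1 and 47.5 CPM and both Matrigel groups below 5.5 CPM.

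Mmp14 was also higher in collagen than in Matrigel whatever the treatment. Between the untreated groups, it had 97.8 ± 11.5 CPM in COL_Control and 61.6 ± 4.24 CPM in MG_Control (SD, n = 3 each). The log2 fold change was 0.66 ± 0.14 (edgeR adjusted p = 0.00269). With 5-FU in both gels, it had 240 ± 45.9 CPM in COL_5FU and 54.3 ± 6.76 CPM in MG_5FU (SD, n = 3 each), a fold change of 4.14 (edgeR adjusted p = 1.4e-07). Of the 4 genes tested, Mmp14 and Timp2 were called in untreated collagen against Matrigel, both higher, where 31.2% of all genes were called, 15.8% higher and 15.4% lower. With 5-FU, 3 of the 4 were called (Mmp14 and Timp2 higher, Mmp7 lower), where 35.5% of all genes were called, 17% higher and 18.6% lower.

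The cWRNE groups had Mmp14 at the level of 5-FU-treated collagen. Mmp14 had 240, 331 and 198 CPM in COL_cWRNE, above all COL_Control values (log2 fold change 1.39 ± 0.23, edgeR adjusted p = 0.000654). In VIL it had 193, 278 and 402 CPM in replicates 1, 2 and 3, and the log2 fold change over COL_cWRNE was 0.19 ± 0.26 (edgeR adjusted p = 0.728). By mean level Mmp14 ran from MG_5FU and MG_Control, which overlapped, through COL_Control, which stood alone, to COL_5FU, COL_cWRNE and VIL, which overlapped in turn. The highest VIL value was in replicate 3, the library with the highest macrophage marker sum. In COL_cWRNE, 6 of the 13 macrophage and myeloid markers (Adgre1, C1qa, C1qb, C1qc, Ptprc and Tyrobp) were at 0 counts. The list summed to 119 to 163 TPM in COL_cWRNE and 43.8 to 82.7 TPM in COL_Control. Cd68 and Csf1r were higher in COL_cWRNE without overlap. Lyz2 was lower without overlap, at 1.23 to 3.58 TPM in COL_cWRNE and 3.78 to 7.22 TPM in COL_Control, and the other 10 markers overlapped. Their part in the Mmp14 levels was not tested.

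Timp2, the secreted inhibitor that binds Mmp14, was the member of the 4 widely detected genes that differed most between the culture types. In the main fit, without a replicate block, it did not pass the test for 5-FU in either gel. In untreated cultures it had 32.4, 16.1 and 12.1 CPM in COL_Control and 5.49, 2.22 and 2.43 CPM in MG_Control. The collagen values all lay above the Matrigel values, with a fold change of 6.01 (log2 fold change 2.59 ± 0.46, edgeR adjusted p = 0.000774). Between the 5-FU-treated groups, Timp2 had 47.5, 41.6 and 19.3 CPM in COL_5FU and 4.60, 3.17 and 2.17 CPM in MG_5FU, a fold change of 10.1 (log2 fold change 3.34 ± 0.47, edgeR adjusted p = 9.19e-05).

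In collagen, 5-FU gave Timp2 a log2 fold change of 0.80 ± 0.42 (edgeR adjusted p = 0.159), with overlapping groups. Libraries of the same number deviated together in this comparison, and with the replicate number as a block the change was 0.85 and passed the test (edgeR adjusted p = 0.00577). Without the block, it passed when the filter on low counts was dropped, at 0.85 (edgeR adjusted p = 0.0147). It also passed without COL_Control replicate 1, at 1.32 (edgeR adjusted p = 0.0318). In Matrigel the log2 fold change was 0.05 ± 0.46 (edgeR adjusted p = 0.952), and the difference of the responses was 0.75 ± 0.62 (edgeR adjusted p = 0.551).

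Timp2 was higher still in the cWRNE medium. It had 201, 265 and 131 CPM in COL_cWRNE and 32.4, 16.1 and 12.1 CPM in COL_Control, with no overlap and a fold change of 9.82 (log2 fold change 3.30 ± 0.48, edgeR adjusted p = 0.000213). VIL libraries held 139, 354 and 269 CPM, and the log2 fold change over COL_cWRNE was 0.36 ± 0.41 (edgeR adjusted p = 0.667). Against MG_Control, Timp2 was 73.2-fold higher in VIL (log2 fold change 6.19 ± 0.52, edgeR adjusted p = 4.77e-05) and 57.2-fold higher in COL_cWRNE (log2 fold change 5.84 ± 0.51, edgeR adjusted p = 5.15e-05). These comparisons share the MG_Control libraries. Of the 9 genes tested between COL_cWRNE and COL_Control, 5 of which were at or near 0 in both groups, Mmp7, Mmp14 and Timp2 were called, all higher, where 18% of all genes were called, 13.1% higher and 4.85% lower.

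The balance of Timp2 to Mmp14 within a library was highest in the cWRNE medium. In TPM, Timp2 per Mmp14 was 0.474 to 0.834 in VIL and 0.548 to 0.768 in COL_cWRNE. It was 0.0878 to 0.201 in COL_5FU and 0.104 to 0.262 in COL_Control, and 0.0301 to 0.124 in MG_5FU and 0.0450 to 0.0656 in MG_Control. Both cWRNE groups lay above all other libraries, and within each gel the 5-FU and control ranges overlapped. Within each same-numbered collagen pair the ratio was lower with 5-FU, at 0.201, 0.155 and 0.0878 in COL_5FU replicates 1, 2 and 3 and 0.262, 0.176 and 0.104 in COL_Control. A gene nested in Timp2, Cep295nl, had at most 20 counts in a library.

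Timp1, a secreted inhibitor that is often induced in injured tissue, was scarce, with 0 to 136 counts per library, so its values carry the largest counting error of the 4. It had 1.13, 4.19 and 1.18 CPM in VIL, 1.85, 2.48 and 1.42 CPM in COL_cWRNE, 0.997, 1.14 and 1.19 CPM in COL_5FU and 0.764, 0.406 and 0.109 CPM in COL_Control. In Matrigel it had 0.415, 0.189 and 0.461 CPM in MG_5FU, and 0.439, 0 and 0 CPM in MG_Control, where 12 counts in replicate 1 made the whole group. Both cWRNE groups lay above every Matrigel library. The 3 COL_5FU libraries lay above the 3 COL_Control libraries, yet the log2 fold change of 1.33 ± 1.00 did not pass (edgeR adjusted p = 0.333).

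In edgeR fits that share their spread over 9, 12 or 18 libraries, Timp1 passed the test only in comparisons of cWRNE groups with MG_Control. Its log2 fold change was 3.86 ± 1.22 in VIL (edgeR adjusted p = 0.0271) and 3.67 ± 1.21 in COL_cWRNE (edgeR adjusted p = 0.0427). Leaving out 1 library at a time moved these adjusted p-values to between 0.00349 and 0.0972 for VIL and between 0.00455 and 0.109 for COL_cWRNE, and without VIL replicate 2, MG_Control replicate 2 or MG_Control replicate 3 the VIL call was lost. Any 1 of the COL_cWRNE libraries, or MG_Control replicate 2 or 3, when left out, ended the COL_cWRNE call. For COL_cWRNE against COL_Control, Timp1 had a log2 fold change of 2.15 ± 0.94 (edgeR adjusted p = 0.132), and for VIL against COL_cWRNE 0.19 ± 1.02 (edgeR adjusted p = 0.942). Timp1 was called higher in COL_cWRNE than in COL_Control by limma on TPM (adjusted p = 0.015) and by edgeR with only those groups in the fit (adjusted p = 0.0325). It was likewise called higher in COL_5FU than in MG_5FU by limma on TPM (adjusted p = 0.0134) and by edgeR with only those groups (adjusted p = 0.0431). For VIL over MG_Control, edgeR with only those groups ended the Timp1 call (log2 fold change 3.86, adjusted p = 0.063). The call for COL_cWRNE over MG_Control held in the same setting. With VIL replicate 1 as the only VIL library, the log2 fold change over MG_Control was 2.94. Timp1 overlaps Syn1 on the other strand, which had at most 27 counts in a library, a number of the same order as Timp1 in the crypt-derived groups.

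**Figure D3:**
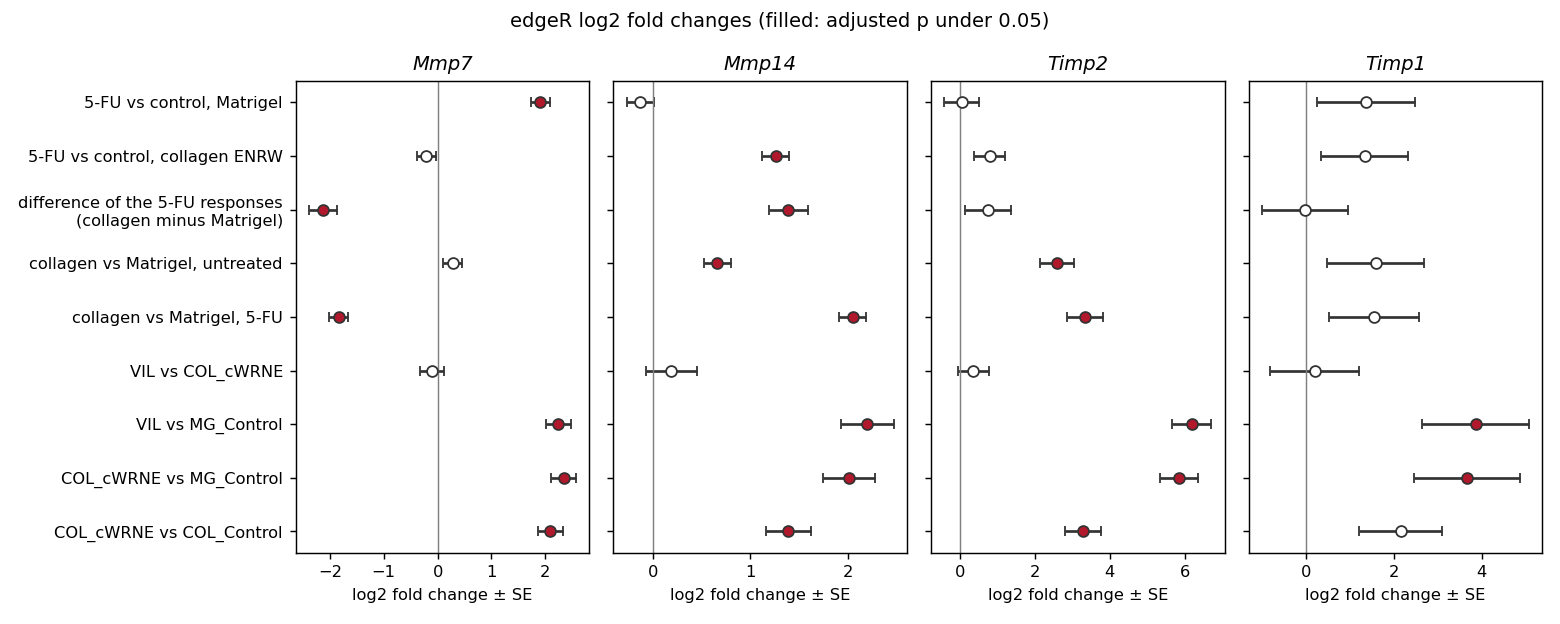
edgeR log2 fold changes (points) with SE (bars) for Mmp7, Mmp14, Timp2 and Timp1 in each comparison, with filled points at an adjusted p under 0.05 and open points otherwise. The 5-FU rows show Mmp7 at -0.21 in collagen and 1.91 in Matrigel and Mmp14 at 1.26 in collagen and -0.13 in Matrigel, and the row of VIL against COL_cWRNE has all 4 genes open.

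Of the remaining 6 metalloproteinases, Mmp2, Mmp9, Mmp10, Mmp12 and Mmp13 separated the villus-derived libraries from all others, and Mmp3 did not. Mmp2, Mmp9, Mmp10, Mmp12 and Mmp13 passed the filter on low counts only through the VIL libraries, so their p-values support nothing beyond their levels. Mmp12, the macrophage elastase, had 102, 343 and 454 CPM in VIL replicates 1, 2 and 3. In the 15 crypt-derived libraries it had 30 counts in COL_cWRNE replicate 2, 27 counts in MG_5FU replicate 2 and 0 in the other 13. The VIL values all lay above the rest, and the log2 fold change over COL_cWRNE was 9.82 ± 1.15 (edgeR adjusted p = 0.0042). Mmp10 (stromelysin 2) had 17.5, 176 and 320 CPM in VIL, against 4 counts in COL_cWRNE replicate 2, 35 counts in MG_5FU replicate 2 and 0 elsewhere. Its log2 fold change over COL_cWRNE was 11.78 ± 1.51 (edgeR adjusted p = 0.00596), and the call ended without COL_cWRNE replicate 2 (edgeR adjusted p = 0.051), which leaves that group at 0 counts.

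Mmp13, a collagenase, had 39.1, 114 and 424 CPM in VIL replicates 1, 2 and 3 and 0 counts in COL_cWRNE. Since 0 counts over the 3 libraries allow up to 3, Mmp13 was at least 5780-fold higher in VIL (edgeR adjusted p = 0.0118). The gelatinase Mmp9 had 13.5, 143 and 582 CPM in VIL and 0 counts in all 15 crypt-derived libraries. It was at least 7410-fold higher in VIL than in COL_cWRNE (edgeR adjusted p = 0.0279). Mmp2, the other gelatinase, had 5.63, 64.5 and 150 CPM in VIL, at least 2200-fold above COL_cWRNE (edgeR adjusted p = 0.0236), and 5 counts in MG_5FU replicate 2 were its only ones outside VIL. The calls for Mmp2 and Mmp9 were lost without VIL replicate 2 or any 1 COL_cWRNE library, at edgeR adjusted p-values of up to 0.0748 for Mmp2 and 0.0856 for Mmp9.

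The lowest VIL library was far above the crypt-derived groups too. For the library with the least of each gene, replicate 1 in all 3 cases, the level was still at least 169-fold the floor of COL_cWRNE for Mmp2, 407-fold for Mmp9 and 1170-fold for Mmp13. Against MG_Control, where all 6 genes were at 0 counts, VIL was at least 8810-fold higher for Mmp12, 7240-fold for Mmp9, 5660-fold for Mmp13, 5030-fold for Mmp10 and 2150-fold for Mmp2. These 5 entered the test only through the VIL libraries, so their edgeR adjusted p-values of 0.000397 to 0.00589 add no support.

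Mmp3 (stromelysin 1), which can activate several other metalloproteinases, was the exception among the 6. It had 0, 1.30 and 0.859 CPM in VIL replicates 1, 2 and 3 and 0 counts in the 15 crypt-derived libraries, and did not have enough counts to be tested. Its 61.0 counts over VIL were at least 21.6-fold above the COL_cWRNE floor. Mmp3 and Mmp10 are close relatives in sequence, and how reads shared between relatives were counted is not given in the sources used here. In VIL replicate 3, Mmp10 had 320 CPM beside 0.859 CPM of Mmp3.

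Between VIL and COL_cWRNE, 5 of the 9 genes tested were called, all higher in VIL, where 7.64% of all genes were called, 5.68% higher and 1.96% lower. The 5 were those that passed the filter on low counts only through the VIL libraries, so neither their count nor their p-values support anything further. The other 4 genes overlapped between the groups. Against MG_Control, all 9 genes tested were called higher in VIL, where 46.6% of all genes were called, 27% higher and 19.7% lower. The same 5 passed the filter only through VIL here too, and the other 4 were Mmp7, Mmp14, Timp1 and Timp2. Between COL_cWRNE and MG_Control, Mmp7, Mmp14, Timp1 and Timp2 were called higher, where 33.3% of all genes were called, 20.1% higher and 13.1% lower.

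**Figure D4:**
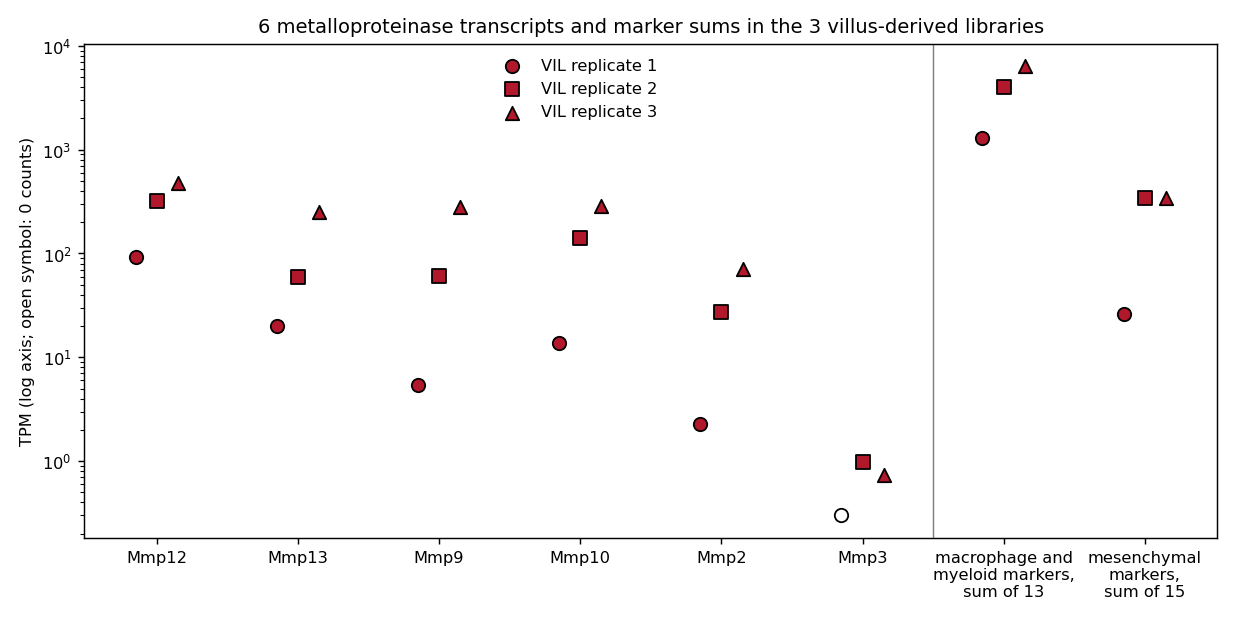
TPM (log axis) of 6 metalloproteinases and of the summed macrophage and mesenchymal markers in each VIL library, with an open symbol for 0 counts. Replicate 1 is lowest and replicate 3 highest for Mmp12, Mmp13, Mmp9, Mmp10 and Mmp2 and for the macrophage sum, at 1306, 3982 and 6324 TPM, whereas Mmp3 stays below 1 TPM.

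Within VIL, the libraries ranked alike for Mmp2, Mmp9, Mmp10, Mmp12 and Mmp13, with replicate 1 lowest and replicate 3 highest, and the macrophage marker sum ranked the same way. The mesenchymal sum was lowest in replicate 1 and nearly equal in replicates 2 and 3, at 341 and 344 TPM. Single mesenchymal markers split between replicates 2 and 3. Dcn (85.3 and 64.1 TPM), Col3a1, Acta2, Lum and Vim were higher in replicate 2. The other markers of that list, such as Pdgfra (7.80 and 21.8 TPM), were higher in replicate 3. Among the metalloproteinases, the size of the spread differed from gene to gene. In a ratio computed after the values were seen, Mmp12 came to 70.9, 81.0 and 75.7 TPM per 1000 TPM of macrophage markers in replicates 1, 2 and 3. It was thus nearly proportional to their sum, which is mostly Lyz2, at 906, 2574 and 4259 TPM in replicates 1, 2 and 3. Adgre1 (3.28, 16.1 and 13.3 TPM) and Cd14 (53.7, 185 and 93.0 TPM) were highest in replicate 2, and the other markers of the list in replicate 3. Mmp9 came to 4.15, 15.2 and 44.5, Mmp13 to 15.3, 15.0 and 39.7, Mmp10 to 10.4, 35.6 and 45.6, and Mmp2 to 1.74, 6.85 and 11.3 on the same scale, so these 4 were relatively richer in replicate 3 than in replicate 1. Per 1000 TPM of mesenchymal markers, Mmp2 came to 86.3, 80.0 and 208 TPM, Mmp9 to 205, 178 and 819, and Mmp10 to 516, 415 and 838. On that scale Mmp12 came to 3510, 945 and 1390, and Mmp13 to 755, 175 and 730. The part of either cell type in these levels was not tested.

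The few counts outside VIL were concentrated in single libraries. MG_5FU replicate 2 held 5 counts of Mmp2, 35 of Mmp10, 27 of Mmp12 and 6 of Mmp13, and was at 0 for Mmp3 and Mmp9, while MG_5FU replicates 1 and 3 held none of the 6. The same library had 7 counts of C1qb and 6 of Ptprc, where MG_5FU replicates 1 and 3 had none, and 0 of Adgre1, while C1qa was spread over the MG_5FU libraries with 15, 7 and 3 counts. It also held 41 of the 44 counts of the mesenchymal gene Pdgfra in MG_5FU, and all 12 of Col1a2 and 11 of Col3a1. Their part in these counts was not tested. COL_cWRNE replicate 2 held 30 counts of Mmp12 with C1qa, C1qb, C1qc, Adgre1, Tyrobp and Ptprc all at 0. COL_5FU replicate 2 held 3 counts of Mmp13. No count of the 6 genes was seen in MG_Control or COL_Control.

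Levels of different genes can be compared in TPM, which is per transcript length. The 8 metalloproteinases summed to 1556, 1689 and 2438 TPM in VIL replicates 1, 2 and 3 and to 1336, 1265 and 1214 TPM in COL_cWRNE. Their sums were 334 to 385 TPM in COL_5FU and 281 to 457 TPM in COL_Control, and 611 to 662 TPM in MG_5FU and 234 to 240 TPM in MG_Control. Mmp7 and Mmp14 together made up at least 99.7% of the sum in every crypt-derived library. In VIL they made up 91.4, 63.7 and 43.7% in replicates 1, 2 and 3, so that in replicate 3 the other genes outweighed them. Mmp7 alone was 58.7 to 66.6% of the sum in COL_5FU and 78.8 to 85.6% in COL_Control, against 95.4 to 96.5% in MG_5FU and 84.7 to 86.8% in MG_Control.

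**Figure D5:**
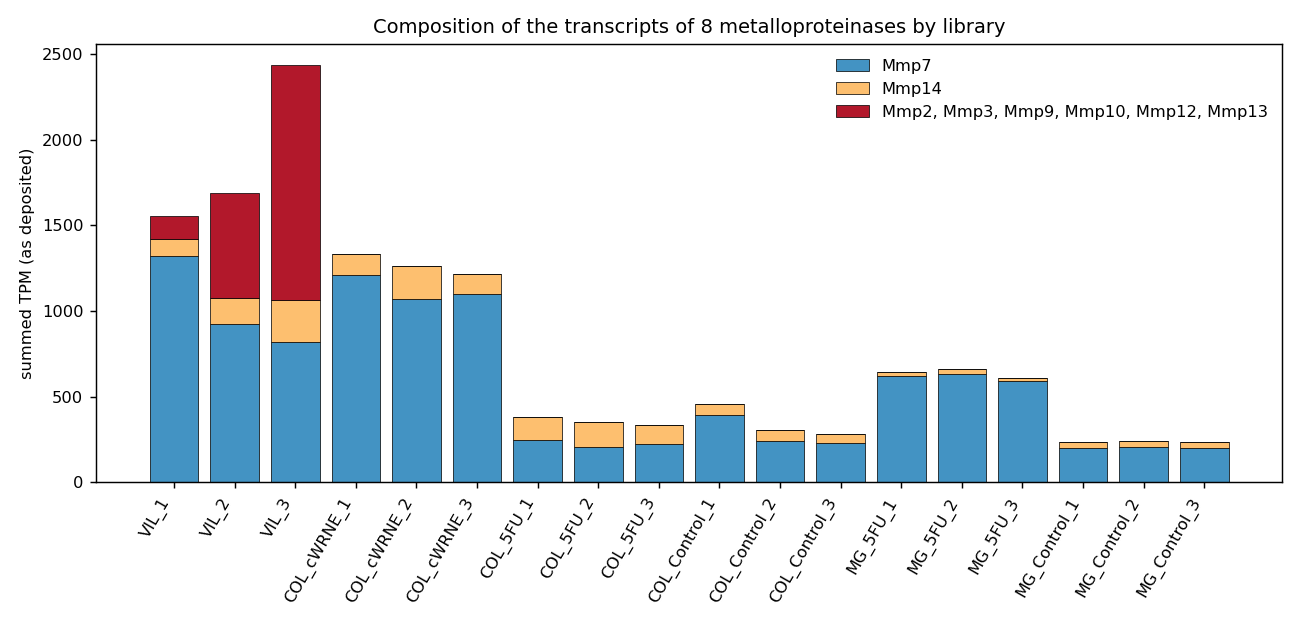
Summed TPM of 8 metalloproteinases in each library (bars from 0), split into Mmp7, Mmp14 and the other 6 genes. The other 6 genes show as a visible share in the VIL libraries, where Mmp7 and Mmp14 make up 91.4, 63.7 and 43.7% of the bar, and Mmp14 makes up a larger share in COL_5FU than in COL_Control.

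The 2 inhibitors summed to 49.0, 133 and 124 TPM in VIL replicates 1, 2 and 3 and to 66.6 to 135 TPM in COL_cWRNE. They came to 12.4 to 29.5 TPM in COL_5FU and 5.74 to 18.9 TPM in COL_Control, and to 1.39 to 3.56 TPM in MG_5FU and 1.59 to 3.06 TPM in MG_Control. The metalloproteinase sum per inhibitor sum was therefore 182 to 439 in MG_5FU and 76.8 to 151 in MG_Control, without overlap. It was 13.0 to 27.0 in COL_5FU and 24.2 to 49.0 in COL_Control, with overlap between the groups, yet lower with 5-FU in each same-numbered pair, at 13.0, 14.2 and 27.0 in COL_5FU replicates 1, 2 and 3 and 24.2, 24.7 and 49.0 in COL_Control. It was 12.7 to 31.8 in VIL and 9.37 to 18.2 in COL_cWRNE, also with overlap. These ratios leave out the inhibitor Timp3. It averaged 6.38 TPM in MG_5FU and 2.82 TPM in MG_Control, above the mean sums of Timp1 and Timp2 there, 2.35 and 2.09 TPM. In collagen Timp3 averaged 12.1 TPM in COL_5FU and 2.47 TPM in COL_Control. Ratios with Timp3 in the sum were not computed, so those above hold for Timp1 and Timp2 only. Transcript ratios say nothing of how much enzyme was active.

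Among 15 further metalloproteinases, the membrane-bound Mmp15 had the smallest adjusted p with 5-FU in each gel. Mmp15 averaged 30.1 ± 1.88 TPM in COL_5FU and 21.7 ± 1.58 TPM in COL_Control (SD, n = 3 each; log2 fold change 0.58 ± 0.11, edgeR adjusted p = 0.00131). In Matrigel it averaged 14.1 ± 1.35 TPM in MG_5FU and 6.03 ± 0.823 TPM in MG_Control (SD, n = 3 each; log2 fold change 1.58 ± 0.12, edgeR adjusted p = 4.73e-07). Mmp15 thus rose with 5-FU in both gels, and more in Matrigel (collagen minus Matrigel -1.01 ± 0.16, edgeR adjusted p = 0.0017). With 5-FU, 2 of the 7 further metalloproteinases tested (Mmp15, Mmp24) rose and 1 (Mmp20, the enamel protease) fell in collagen, and 1 (Mmp15) rose and 1 (Mmp20) fell in Matrigel. Over all genes, 35.3% were called in collagen and 30.9% in Matrigel, near the 2 of 7 in Matrigel. Between VIL and COL_cWRNE, 2 of 9 were called, both higher, beside 7.64% of all genes. Both had passed the filter only through VIL, so their count supports nothing. These were Mmp8, the neutrophil collagenase, and Mmp19, with Mmp8 at 2.31, 6.19 and 15.0 TPM in VIL replicates 1, 2 and 3 and at 0 counts in COL_cWRNE. In COL_cWRNE against COL_Control, 5 of 9 rose and none fell, beside 13.1% of all genes called higher and 4.85% lower. Among them were Mmp11 (log2 fold change 2.03 ± 0.28, edgeR adjusted p = 0.000127), Mmp24, Mmp28 and Mmp23.

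Of 4 further inhibitors, Timp3, which is held in the matrix, rose with 5-FU in both gels. It averaged 6.38 ± 1.65 TPM in MG_5FU and 2.82 ± 0.586 TPM in MG_Control (SD, n = 3 each; log2 fold change 1.44 ± 0.30, edgeR adjusted p = 0.00256). In collagen Timp3 averaged 12.1 ± 3.90 TPM in COL_5FU and 2.47 ± 0.866 TPM in COL_Control (SD, n = 3 each; log2 fold change 2.45 ± 0.31, edgeR adjusted p = 6.01e-05).

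A list of the plasminogen system, whose protease plasmin can activate metalloproteinase precursors, also held the protease Furin and the metalloproteinase inducer Bsg. Of its 7 genes tested, 3 rose with 5-FU in collagen (Plat, Plaur and Serpine2) and 4 in Matrigel (the same 3 and Bsg), and none fell, beside 18.6% of all genes called higher in collagen and 19.2% in Matrigel. The median log2 fold change of the list was 1.02 in collagen, beside -0.03 over all genes, and 1.99 in Matrigel, beside 0.06 over all genes. Serpine2, a protease inhibitor, had log2 fold changes of 4.06 ± 0.53 in collagen (edgeR adjusted p = 7.51e-05) and 4.78 ± 0.59 in Matrigel (edgeR adjusted p = 4.15e-05). Plat is the tissue plasminogen activator and Plaur the urokinase receptor. Untreated collagen against Matrigel had 5 of 7 higher (Plat, Plaur, Serpine2, Furin and Bsg), beside 15.8% of all genes, led by Plat, with 93.4 ± 20.4 TPM in COL_Control and 8.51 ± 1.79 TPM in MG_Control (SD, n = 3 each; log2 fold change 3.22 ± 0.23, edgeR adjusted p = 4.04e-07). None of the 7 was called between VIL and COL_cWRNE, with a median log2 fold change of 0.51.

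The AP-1 subunits, transcription factors known to act on several metalloproteinase promoters, were higher in untreated collagen than in Matrigel for all 8 genes tested, with a median log2 fold change of 2.22 beside 0.04 over all genes, of which 15.8% were called higher. Fos averaged 263 ± 79.9 TPM in COL_Control and 17.0 ± 3.66 TPM in MG_Control (SD, n = 3 each; log2 fold change 3.75 ± 0.25, edgeR adjusted p = 2.77e-07). With 5-FU, 6 of 8 rose in collagen and 5 of 8 in Matrigel, beside 18.6% and 19.2% of all genes, and none was called lower. Fosl1 had the largest log2 fold change of the 8 in each gel, 2.82 ± 0.37 in collagen (edgeR adjusted p = 7.23e-05) and 5.09 ± 0.44 in Matrigel (edgeR adjusted p = 2.01e-06). Its responses differed by -2.26 ± 0.55 (collagen minus Matrigel, edgeR adjusted p = 0.0216). Between VIL and COL_cWRNE, 1 of 9 was higher (Batf, which passed the filter only through VIL) and, beside 1.96% of all genes, 2 were lower, Atf3 (log2 fold change -2.18 ± 0.31, edgeR adjusted p = 0.00458) and Jun.

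Among 13 ADAM and ADAMTS proteases, relatives that shed membrane proteins or cut proteoglycans, 6 of 7 tested were higher in untreated collagen than in Matrigel and none was lower, beside 15.8% of all genes called higher. With 5-FU, 3 of 7 rose and 2 fell in collagen, and 1 rose and 2 fell in Matrigel, beside 35.3% of all genes called in collagen and 30.9% in Matrigel. Adam8 rose in both, by a log2 fold change of 2.12 ± 0.44 in collagen (edgeR adjusted p = 0.00213) and 2.69 ± 0.48 in Matrigel (edgeR adjusted p = 0.00075), and Adamts15 fell in both. Between VIL and COL_cWRNE, 4 of 10 rose, beside 5.68% of all genes called higher. One of the 4 was Adam15 (log2 fold change 0.71 ± 0.11, edgeR adjusted p = 0.00808). Adamts2 and Adam19 were 2 of the 4, with 0 counts in COL_cWRNE and MG_Control, so they passed the filter only through VIL and support nothing. Of 6 cysteine cathepsins tested, lysosomal proteases, 3 rose in VIL over COL_cWRNE and none fell, beside 5.68% of all genes called higher. Among them, Ctss, typical of antigen-presenting cells, had a log2 fold change of 4.14 ± 0.48 (edgeR adjusted p = 0.00229), and Ctsb one of 1.23 ± 0.14 (edgeR adjusted p = 0.00217). The VIL libraries also held the macrophage markers given above, whose part in these differences was not tested.

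Across the 18 libraries, the genes whose log2(CPM + 1) tracked each of the 10 genes most closely, among 13831 genes, were found by Pearson's r, given as a description over libraries that fall into groups. Mmp12 tracked Gpnmb (r = 0.9996), Cd300c2 and C1qb, and Mmp13 tracked Csf2rb (r = 0.9995), Itgax and Fcgr4. Mmp9 tracked B430306N03Rik (r = 0.9994), Bcl2a1b and Cd33, Mmp2 tracked Cd33 (r = 0.9995), Cxcl14 and Sirpb1c, and Mmp10 tracked Sparc (r = 0.9976), Nfam1 and Spi1. All of these are nearly at 0 outside VIL for the metalloproteinase, so 3 libraries set the correlation. Mmp14 tracked Cd9 (r = 0.979), Msn and Itgb1, and Timp2 tracked Unc13d (r = 0.991), Tnfaip2 and Tns4. Timp1 tracked Serpinb9 most closely (r = 0.946). Mmp7 had the loosest neighbours, with Sat1 at 0.912, Arhgdig at 0.910 and Sult2b1 at 0.909, and Mmp3 was too low for this comparison.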

How the data were processed

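RNA was measured in 18 libraries. Per the labels' protocols, cDNA was made with the SMART-Seq mRNA kit and tagged with Nextera XT. For each library the table deposited by the authors holds estimated counts and TPM per gene. The tools named are bcl2fastq 2.20 and DRAGEN, and the build GRCm39 (mm39), per the submitters' processing notes. Annotation and counting options are not given in the sources used here. Of the nonzero deposited counts, 67.8% were whole to within 1e-09. Symbols were found for 52081 identifiers and not for 3333.

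After rounding, the counts went into quasi-likelihood F-tests of edgeR 4.0.16 under R 4.3.3, scaled by TMM and filtered with filterByExpr (minimum count 10, minimum total 15). Benjamini-Hochberg adjustment ran over every gene tested, and calls were made under 0.05. The 5-FU and gel comparisons shared a fit of 12 libraries, the comparisons of VIL, COL_cWRNE and MG_Control a fit of 9, and COL_cWRNE against COL_Control a fit of 18. The SE is the fold change over the root of F. Scripts were tested on simulated data. Floors (3 counts over a group) cover counting error only. The p-values set a difference against the spread between replicates, estimated over all groups of a fit. The main fits had no replicate block.

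The 10 genes were named whatever their result; from each further list, up to 4 genes with the smallest adjusted p per comparison could be named. Genes and lists were chosen with earlier results of these data known. The alternatives used RLE factors, library totals, DESeq2 1.42.0, other filters, other sets of libraries in the fit, a replicate block, limma-trend (limma 3.58.1) on log2(TPM + 1), a fold threshold, each replicate left out in turn, and VIL replicate 1 alone. Same-numbered libraries deviated together, with all 3 correlations above 0.1, for 5-FU in Matrigel (0.131 to 0.542), 5-FU in collagen (0.153 to 0.445) and COL_cWRNE against COL_Control (0.207 to 0.277). Planned protein motif searches were not run. In promoters, each motif was read on both strands.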

Additional observations from a re-analysis of the deposited data

Results flagged for a closer look

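Mmp7 responded differently to 5-FU in the 2 gels, and the difference itself passed the test. The response in collagen minus that in Matrigel came to -2.13 (log2, SE 0.26; edgeR adjusted p = 0.000257), with all 3 MG_5FU libraries above the 3 MG_Control libraries and the COL_5FU and COL_Control libraries overlapping. Over the 12 fits that each left out 1 library, the value stayed between -2.27 and -1.81. Mmp14 differed in the opposite direction, by 1.39 (SE 0.20, edgeR adjusted p = 0.000735), with all 3 COL_5FU libraries above the 3 COL_Control libraries and the Matrigel groups overlapping. Its value stayed between 1.31 and 1.54 over the same 12 fits.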

How the results depend on the processing

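Of the log2 fold changes recomputed for single genes among the 10, 748 kept their direction and their side of the threshold, 21 became weaker, 11 stronger and 33 reversed. Counts of genes called are not in this tally. Counts of the 10 genes called that moved by over 1.5 times were as follows. Without a filter, 3 genes were called for 5-FU in Matrigel (main 1), 2 for 5-FU in collagen (main 1) and 5 for COL_5FU against MG_5FU (main 3). In both comparisons with MG_5FU the added genes were Mmp10 and Mmp12. Their 35 and 27 counts in MG_5FU all lay in replicate 2. For 5-FU in collagen the added gene was Timp2. Limma on TPM called 2 for 5-FU in Matrigel, the replicate block called 2 for 5-FU in collagen, and a log2 fold change of at least 1 left 1 of 2 for COL_Control against MG_Control. Leaving out 1 library gave 1 to 2 for 5-FU in Matrigel, 1 to 2 for 5-FU in collagen and 2 to 6 for VIL against COL_cWRNE (main 5). The replicate block also ended the Timp1 call of COL_cWRNE over MG_Control (adjusted p = 0.0519), where the numbers did not pair, and changed no other call of the 10 genes.

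All reversed values belonged to changes that did not pass the test. Timp2 with 5-FU in Matrigel was -0.11 with library totals, 0.00 with DESeq2, 0.00 without a filter, -0.11 with limma on TPM, 0.00 in the fit of 18 libraries, -0.04 with only the compared groups, and -0.25 to 0.56 with 1 library left out. The Timp1 difference of 5-FU responses was 0.03 with RLE factors, library totals and DESeq2, 0.08 without a filter, 0.40 with limma on TPM, 0.07 in the fit of 18 libraries and -5.07 to 0.68 with 1 library left out. With 1 library left out, Mmp7 spanned -0.35 to 0.10 for 5-FU in collagen and -0.03 to 0.42 for COL_Control against MG_Control. For VIL against COL_cWRNE, limma on TPM gave -0.02 for Timp1 and -0.06 for Timp2, and VIL replicate 1 alone gave 0.34 for Mmp7, -0.38 for Mmp14, -0.74 for Timp1 and -0.50 for Timp2. Leaving out 1 library there gave -0.34 to 0.09 for Mmp7, -0.11 to 0.45 for Mmp14 and -0.72 to 0.53 for Timp1. The cause was not tested.

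Without MG_Control replicate 1, Timp1 had 0 counts in MG_Control and was called for 5-FU in Matrigel (adjusted p = 0.00845) and COL_Control against MG_Control (adjusted p = 0.00659). Over all genes, the difference of 5-FU responses had 1360 calls, against 2219 with DESeq2, 521 in the fit of 18 libraries and 802 with the fold threshold. VIL against COL_cWRNE had 1276, against 2256 with DESeq2, 2480 in the fit of 18, 743 with only the compared groups, 847 at 10 CPM in 3 libraries and 351 to 2050 with 1 library left out.

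Calls over all genes also moved with the fold threshold, to 2167 of 5128 for 5-FU in Matrigel, 2218 of 5862 for 5-FU in collagen, 2215 of 5188 for COL_Control against MG_Control, 2715 of 5905 for COL_5FU against MG_5FU, 4794 of 7789 for VIL against MG_Control, 3358 of 5556 for COL_cWRNE against MG_Control and 1543 of 3184 for COL_cWRNE against COL_Control. VIL replicate 1 alone gave 4637 against MG_Control. With 1 library left out, COL_cWRNE gave 3630 to 4324 against MG_Control and 1907 to 2669 against COL_Control.

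Library totals in place of TMM moved the median log2 fold change of all genes to between -0.157 and 0.121 (TMM -0.074 to 0.063). The share of calls that were higher was then 44.6% for 5-FU in Matrigel (TMM 62.2%), 41.7% for 5-FU in collagen (TMM 52.8%), 33% for the difference of responses (33.7% with RLE, TMM 23%), 60.4% for COL_5FU against MG_5FU (TMM 47.8%) and 45.2% for COL_cWRNE against COL_Control (TMM 73%). No call of the 10 genes changed under either scaling.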
